A study of Mus musculus with 2 samples.

Results

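The 35 genes described here act in meiotic prophase, the stage of sperm formation in which homologous chromosomes pair and recombine. They were taken by name from the GENCODE M21 annotation of the mouse genome (build mm10), where all 35 were found among 21938 protein-coding genes of chromosomes 1 to 19, X and Y. The data are the peaks of 1 chromatin immunoprecipitation library, made with a rabbit antibody prepared in-house against the testis-specific linker histone H1t, from spermatogenic cells of ICR mice aged 6 weeks. An input library of the same cells was not analysed here. The preparation came from whole testes by a cell isolation procedure and may hold germ cells of several stages, and the peak list holds no expression values with which the stage or the purity of the cells could be checked. With 1 library there is no replicate, so counts and values stand as descriptions of this library, with no test, and the read depth behind the peaks is unknown.

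Linker histones bind where DNA enters and leaves the nucleosome, and H1t appears in spermatocytes in the course of meiotic prophase. Whether H1t is present at the time each of these genes acts is not shown by these data. Most of the genes act in meiotic prophase. In that stage the axis of each chromosome is built from meiotic cohesins and HORMA-domain proteins, DNA is broken and repaired from the homologue, the telomeres are tied to the nuclear envelope, and the synaptonemal complex joins the homologues along their length. The 35 genes were ordered by these roles. They lie on 16 chromosomes, with 0 on X or Y, and their bodies run from 2.76 kb (Hspa2) to 342.3 kb (Mei4), with a median of 32.2 kb against 17.4 kb for all coding genes.

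Meiotic prophase genes carried H1t peaks about as often as coding genes at large. A peak midpoint lay within 1 kb of the annotated start of 7 of the 35 genes, which is 20%, against 23.0% of all coding genes and 24.2% of those on autosomes. A peak midpoint lay in the body or within 10 kb of it for 24 of the 35 genes (68.6%), against 67.9% of all coding genes. The median density was 2.15 peaks per 100 kb of body and flanks, against 2.43 over all coding genes, and with flanks of 5 kb this order turned (2.01 against 1.79). The upper quartile was 2.84, against 4.78, and the mean 2.47, against 3.53. The genes together held 59 peaks, of which Sycp1 and Mei4 had 22 (37.3%). Peak counts per gene were 0 in 11 genes, 1 in 11, 2 in 7, 3 in 4, 8 in 1 and 14 in 1.

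**Figure D1:**
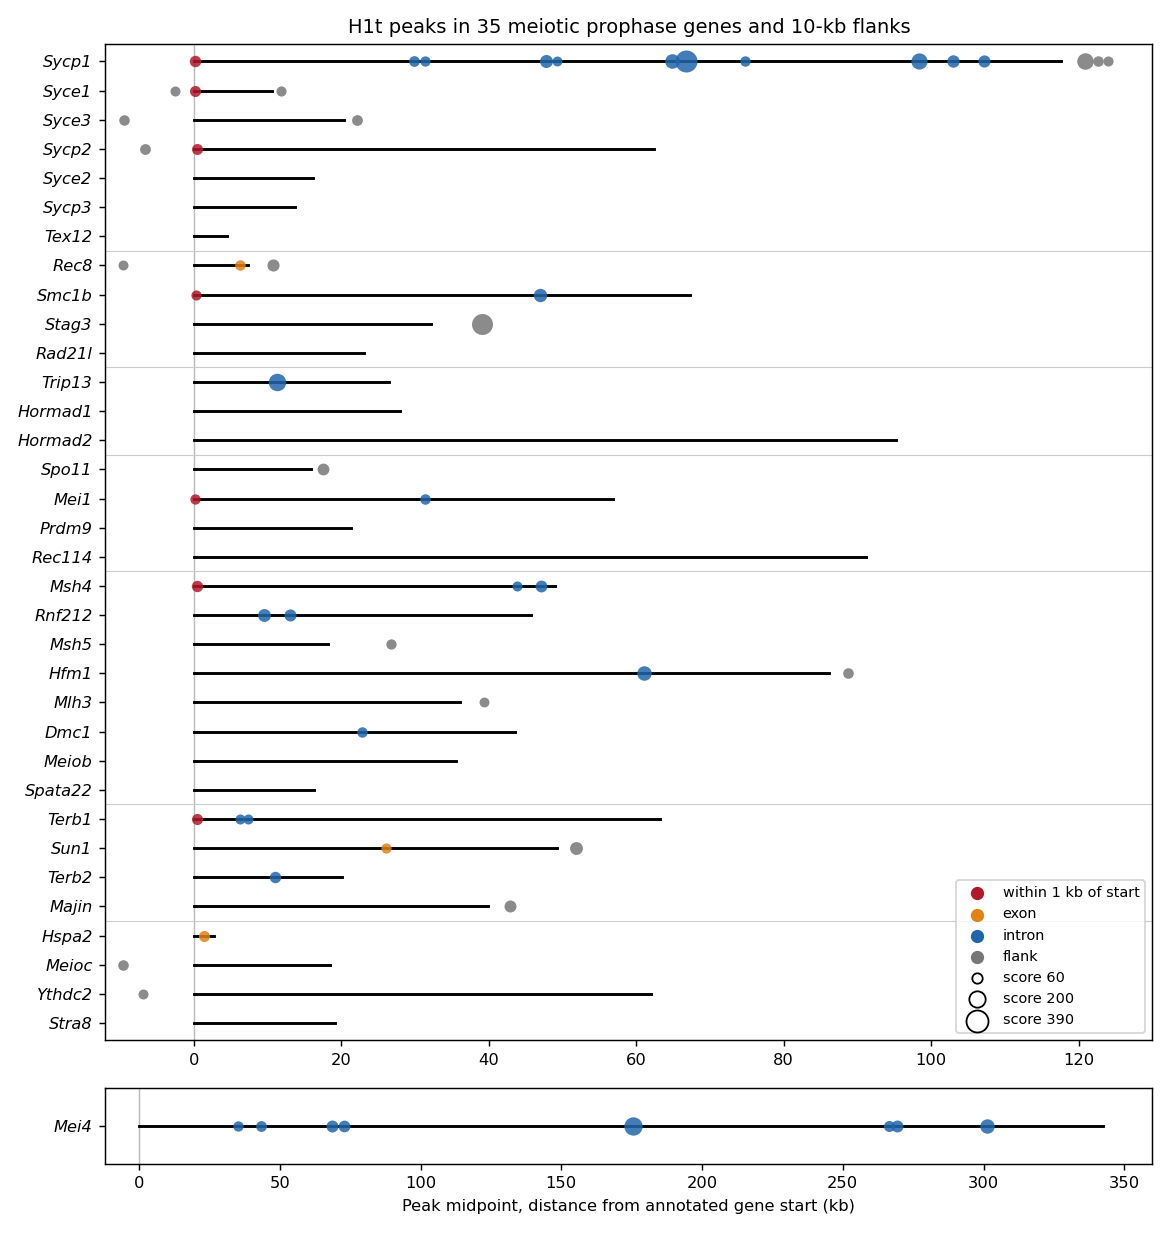
H1t peak midpoints (dots, with area rising with the authors' score and colour giving the position) in the 35 meiotic prophase genes, by distance from the annotated start in kb; black lines are gene bodies, and grey rules part the roles. Sycp1 carries 14 peaks and Mei4, drawn on its own axis, 8, while 11 genes carry 0.

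The start-site peaks belonged to genes of 5 roles, and all 7 midpoints lay just inside the gene as GENCODE annotates it. They were found at Sycp1, Sycp2 and Syce1 of the synaptonemal complex, at the cohesin gene Smc1b, at Mei1 of break formation, at Msh4 of crossover formation and at Terb1 of telomere attachment. Their midpoints lay between 136 bp (Syce1) and 478 bp (Terb1) downstream of the start, with a median of 341 bp. Among the 5240 start-site peaks of all coding genes 78.2% were downstream and 59.8% lay in the first 500 bp, with a median of 217 bp.

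The authors' score, a value per peak that starts at 50 in this list and whose meaning is not given in the sources used here, was low to middling at the starts. It was 80.52 at Sycp1, 78.91 at Msh4, 73.47 at Terb1, 73.13 at Syce1, 72.45 at Sycp2, 58.84 at Mei1 and 56.31 at Smc1b. The median of these was 73.13, against 69.78 over the start-site peaks of all coding genes. A score of 100 or more was reached by 0 of the 7, against 21.9% of all start-site peaks. The widths ran from 552 to 655 bp.

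How the peaks sat on the start differed between the genes. Those of Sycp1, Syce1 and Mei1 spanned the start, beginning 177, 165 and 87 bp upstream of it. Those of Smc1b, Sycp2, Terb1 and Msh4 lay wholly inside the GENCODE gene and began 53, 90, 179 and 185 bp downstream. The midpoint fell in the first exon of Msh4, Terb1 and Mei1 and in an intron of the other 4 genes. The start of Smc1b faces that of Ribc2, which also lies within 1 kb of the peak midpoint, so this peak cannot be given to either gene alone. RefSeq places the start of Mei1 12.48 kb and that of Msh4 1.25 kb further downstream than GENCODE. Both peaks thus lie at the GENCODE start and wholly upstream of the RefSeq one, that of Mei1 far from it.

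**Figure D2:**
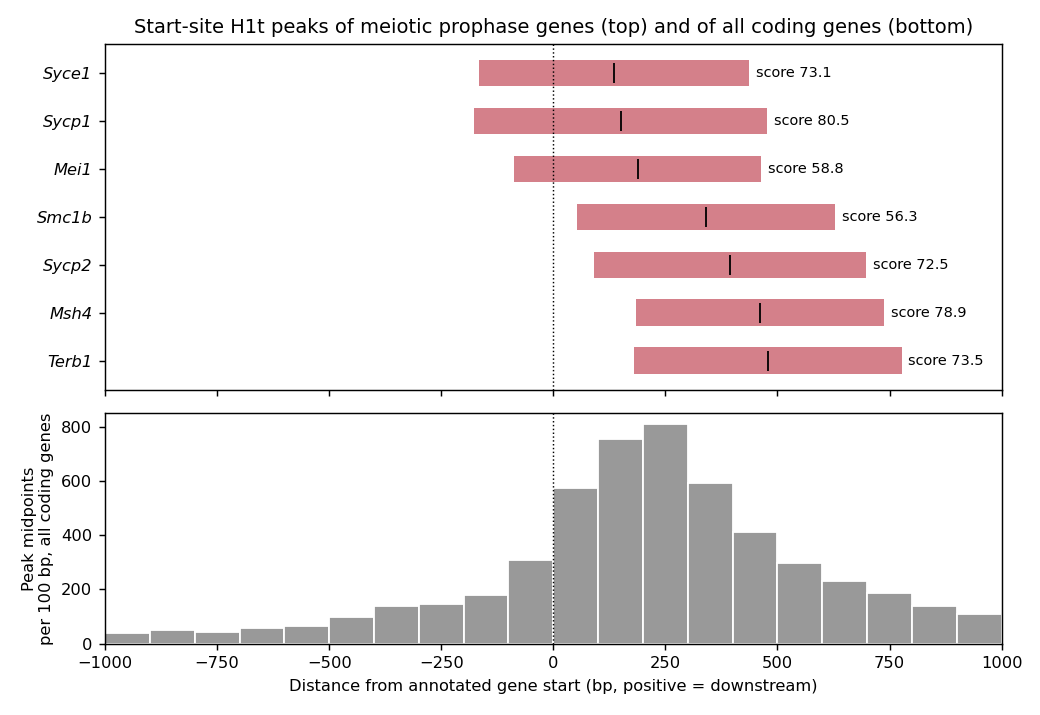
Top, extent (bars) and midpoint (ticks) of the 7 start-site peaks of meiotic prophase genes, by distance in bp from the annotated start, with the authors' score beside each bar; bottom, number of start-site peak midpoints of all coding genes per 100 bp. The 7 midpoints lie 136 to 478 bp downstream, where the histogram of all coding genes is also high.

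Base composition of the start regions was compared between genes with and without a start-site peak. RefSeq start windows (250 bp before to 50 bp after the start, build GRCm38.p6) were matched for 30 of the 35 genes; Majin, Meiob, Spo11, Terb2 and Ythdc2 had no entry. Of these, 26 had a RefSeq start within 1 kb of the annotated start, a limit set after the values were seen, and Mei1, Msh4, Meioc and Rec114 were left out by it. The 150 bases upstream of the RefSeq start are shown for the 5 genes with a start-site peak, from 5′ to 3′ with each CpG in capitals. Those of Sycp1 and Syce1 lay wholly inside the peak. Those of Sycp2, Smc1b and Terb1 lay outside it, on the upstream side.
Sycp1 (chr3:102936101-102936250, minus strand): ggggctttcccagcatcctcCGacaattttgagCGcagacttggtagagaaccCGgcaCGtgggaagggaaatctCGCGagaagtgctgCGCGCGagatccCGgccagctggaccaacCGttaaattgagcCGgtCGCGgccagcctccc
Sycp2 (chr2:178407659-178407808, minus strand): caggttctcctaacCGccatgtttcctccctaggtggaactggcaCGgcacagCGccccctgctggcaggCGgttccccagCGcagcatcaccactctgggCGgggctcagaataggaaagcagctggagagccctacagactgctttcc
Syce1 (chr7:140787855-140788004, minus strand): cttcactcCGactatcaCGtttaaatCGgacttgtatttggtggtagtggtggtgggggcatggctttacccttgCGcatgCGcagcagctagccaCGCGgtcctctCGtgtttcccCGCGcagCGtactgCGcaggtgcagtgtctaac
Smc1b (chr15:85131958-85132107, minus strand): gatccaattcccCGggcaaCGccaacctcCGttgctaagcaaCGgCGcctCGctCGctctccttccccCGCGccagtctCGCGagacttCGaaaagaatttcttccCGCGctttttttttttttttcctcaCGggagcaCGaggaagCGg
Terb1 (chr8:104509888-104510037, minus strand): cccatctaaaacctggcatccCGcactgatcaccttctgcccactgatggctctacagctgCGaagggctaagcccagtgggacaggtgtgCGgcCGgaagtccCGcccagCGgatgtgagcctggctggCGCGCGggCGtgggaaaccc
For comparison, the same stretch is shown for 4 genes without a start-site peak whose windows were in the quintile of coding genes with the highest GC content and whose RefSeq start lay within 17 bp of the annotated start.
Sun1 (chr5:139200487-139200636, plus strand): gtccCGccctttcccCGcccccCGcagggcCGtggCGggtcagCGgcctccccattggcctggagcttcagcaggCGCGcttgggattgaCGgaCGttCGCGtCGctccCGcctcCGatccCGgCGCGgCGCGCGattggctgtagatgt
Dmc1 (chr15:79605110-79605259, minus strand): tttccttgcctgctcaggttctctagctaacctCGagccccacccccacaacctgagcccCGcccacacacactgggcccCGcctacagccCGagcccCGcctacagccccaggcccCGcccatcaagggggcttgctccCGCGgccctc
Hormad1 (chr3:95559527-95559676, plus strand): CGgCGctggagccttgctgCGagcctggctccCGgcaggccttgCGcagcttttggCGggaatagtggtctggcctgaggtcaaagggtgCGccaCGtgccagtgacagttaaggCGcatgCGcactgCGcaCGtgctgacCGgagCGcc
Trip13 (chr13:73937768-73937917, minus strand): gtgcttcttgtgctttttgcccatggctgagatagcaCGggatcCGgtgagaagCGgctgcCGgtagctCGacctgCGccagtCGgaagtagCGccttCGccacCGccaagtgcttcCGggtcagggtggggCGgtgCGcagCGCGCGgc

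The genes without a start-site peak included those with the most GC-rich starts. GC content of the 300-bp window had a median of 59.3% (54.7% to 60.7%) in the 5 genes with a peak and 61.7% (29.0% to 75.3%) in the 21 without. Over all coding genes the order was the other way, with 64.3% in the 3677 genes with a start-site peak and 55.7% in the 10921 without. In the quintile of coding genes with the highest GC content (67.3% or more), 0 of 6 meiotic genes had a start-site peak, namely Hfm1, Sun1, Dmc1, Hormad1, Trip13 and Msh5, against 47.6% of all coding genes there. In the next quintile (61.0% to 67.0%) it was 0 of 6, namely Hspa2, Hormad2, Spata22, Prdm9, Tex12 and Stag3, against 36.0%. Taken as 1 class after the values were seen, these 12 genes with no start-site peak stand beside 41.8% of 5694 coding genes. The absence depends on how the start is defined. With a window of 2 kb Hspa2 gained a start-site peak. With any annotated transcript start Sun1 gained one, from its peak 26.1 kb inside the gene.

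The boundary between the classes passed close to 2 genes with a peak. Sycp2 at 60.7% and Smc1b at 60% lay just below the 61.0% at which the class began. With RefSeq windows at any distance from the annotated start the class began at 60%, and 2 of 17 meiotic genes there had a start-site peak, against 38.4% of coding genes. In the middle quintile (55.3% to 60.7%) 4 of 11 meiotic genes had a peak, against 22.6% of coding genes. The lower quintiles held 1 of 2 (Syce1 at 54.7%, against 14.6% of coding genes) and 0 of 1 (Rad21l at 29.0%, against 6.37%).

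**Figure D3:**
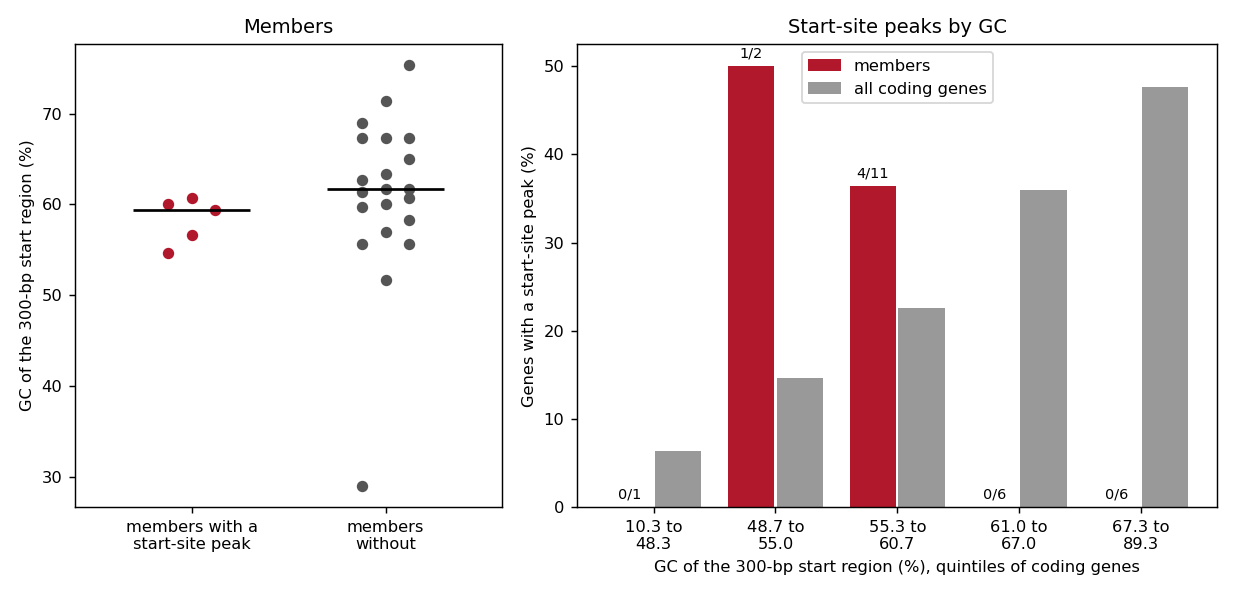
Left, GC content (%) of the 300-bp start region of 26 meiotic prophase genes with and without a start-site peak (points are genes, lines are medians); right, percentage of genes with a start-site peak in each quintile of GC content, for the meiotic genes (red, counts above the bars) and all coding genes (grey). With peaks counted within 1 kb of the annotated gene start, the percentage climbs with GC content to 47.6% in all coding genes. For the meiotic genes it is 0 of 6 in each of the 2 highest quintiles.

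A pair of short motifs was searched on both strands of the 300-bp windows, because starts of meiotic genes are known as targets of a Polycomb-type repressor complex that holds E2F-family and MAX-type proteins. The E2F-type motif GCGGGAA was present at 9 of 26 meiotic genes (34.6%), against 6.75% of all coding windows. In the 2 highest GC quintiles it was present at 6 of 12 meiotic genes, against 11.2% of coding windows. The E-box CACGTG was present at 6 of 26 (23.1%), against 8.65% of all coding windows. In the 2 highest GC quintiles it was present at 3 of 12, against 11.7% of coding windows. Both were present at 5 genes, namely Hormad1, Sycp3, Tex12, Stag3 and Rnf212, and at 0.678% of all coding windows, a share not split by GC content. Neither motif contains the other. Of the 9 genes with the E2F-type motif, 8 had no start-site peak, and the exception was Smc1b. Of all 26 genes, with or without the motif, 21 had no start-site peak. Among all coding genes with the motif, 32.9% had a start-site peak. A link between the motif and the peaks was not tested. The 30 bases around the E2F-type motif are shown for 4 genes with both motifs and for Smc1b, the exception among the 9. The motif, read on the gene's strand as GCGGGAA or its reverse complement TTCCCGC, is in capitals.
Hormad1 (chr3:95559571-95559600, plus strand): cgcagcttttgGCGGGAAtagtggtctggc
Sycp3 (chr10:88459429-88459458, plus strand): aggaaggaacaGCGGGAAagtgctgcttct
Tex12 (chr9:50561395-50561424, minus strand): ggaggaaaaagGCGGGAAgtaaagggaagt
Stag3 (chr5:138280495-138280524, plus strand): tatcccgtgccTTCCCGCgtttttttctaa
Smc1b (chr15:85131987-85132016, minus strand): aaaagaatttcTTCCCGCgctttttttttt

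Density was then read by role. It ranged from 0 to 11.0 peaks per 100 kb, and within most roles genes with several peaks stood beside genes with 0. Genes with 0 peaks in the body or flanks were 11 of the 35 (31.4%), against 32.1% of all coding genes. The genes named below with 0 peaks are thus about as frequent as among coding genes at large.

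**Figure D4:**
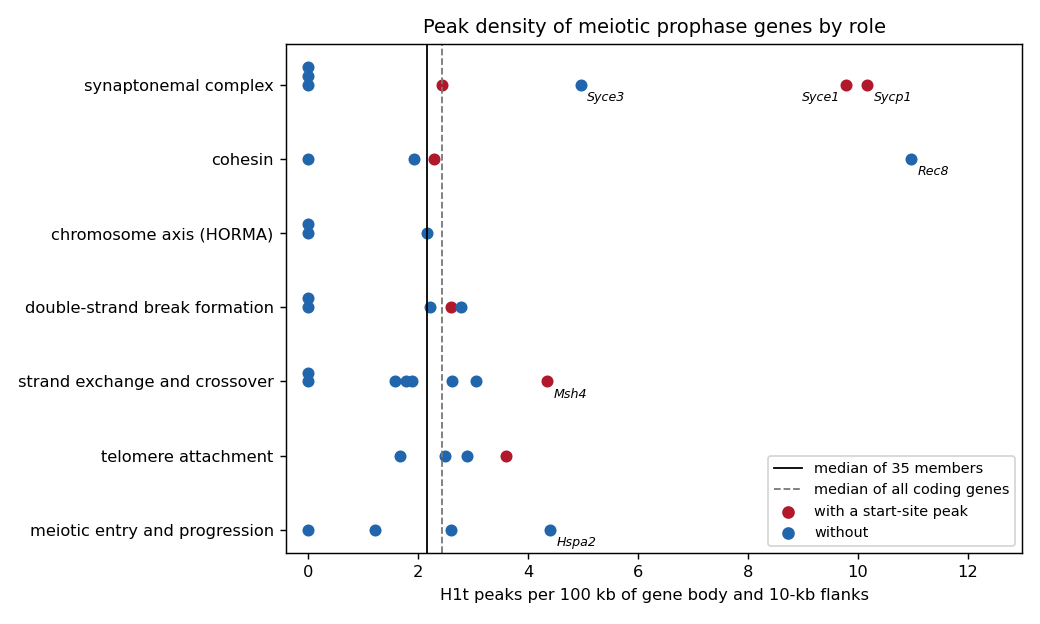
H1t peaks per 100 kb of gene body and 10-kb flanks for each of the 35 meiotic prophase genes (dots, red with and blue without a start-site peak), by role; the lines are the medians of the 35 genes (2.15) and of all coding genes (2.43). Rec8, Sycp1 and Syce1 stand at 9.80 to 11.0, and the other genes at or below 4.96.

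The synaptonemal complex genes held 21 of the 59 peaks, 14 of them in Sycp1. Sycp1, on chromosome 3 from 102818499 to 102936100 (minus strand), encodes the transverse filament that spans the complex, and had 10.2 peaks per 100 kb, higher than 92.6% of coding genes. Coding genes of 110 to 130 kb had a median of 3 peaks, and 1.26% of all coding genes had at least 14. Of the 14 peaks, 10 were intronic, 3 lay 3215 to 6350 bp beyond the 3′ end and 1 was at the start. The one with the highest score, at 102868142 to 102870522, was 2381 bp wide with a score of 390.44, and it was the widest and the highest-scoring of all 59 peaks. A peak of 1253 bp with a score of 152.69 followed it at 102870659 to 102871911. Others inside Sycp1 scored 195.73 (102837066 to 102838530), 114.28 (102888046 to 102888614) and 100.97 (102832670 to 102833671). The start-site peak, at 102935623 to 102936277, scored less than these.

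Syce1, a central element protein gene on chromosome 7, had 3 peaks in a small window and so 9.80 per 100 kb. Beside its start-site peak at 140787416 to 140788017, it had flank peaks 2513 bp upstream (score 53.83) and 1253 bp beyond the 3′ end (score 55.40). Syce3, another central element gene, had 4.96 per 100 kb from 2 flank peaks with scores of 68.11 and 62.59, and both lay inside neighbouring genes (Klhdc7b and Cpt1b). Sycp2, which encodes a lateral element protein on chromosome 2, had its start-site peak at 178406988 to 178407595 and a flank peak inside Ppp1r3d (score 67.96), or 2.43 per 100 kb. That flank peak lay within 1 kb of the starts of Ppp1r3d and Fam217b. Sycp3, the lateral element gene most used as a stain for meiotic axes, and the central element genes Syce2 and Tex12 had 0 peaks. The peak nearest to the start of Sycp3 was 192.6 kb away, to that of Tex12 35.8 kb and to that of Syce2 10.9 kb. No such distances are given here for all coding genes, so whether these and those below are unusual cannot be told.

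The cohesin genes encode the meiotic forms of the rings that hold sister chromatids together. Rec8, the meiotic kleisin subunit, had the highest density of the 35 genes, 11.0 per 100 kb, from 3 peaks around a body of 7.36 kb on chromosome 14. The 1 peak inside it, at 55624076 to 55624592 with a score of 62.64, lay in an exon of a non-coding transcript of the gene and had 216 of its 517 bp in coding sequence. The flank peaks lay inside the neighbours Irf9 (score 52.89) and Ipo4 (score 94.84). Smc1b, on chromosome 15, had its start-site peak at 85131335 to 85131911 and an intronic peak at 85084722 to 85085431 with a score of 123.58. Stag3, the meiotic member of the SA subunits, had 0 peaks in its body and 1 at chromosome 5, 138318539 to 138320219, which lay 6986 bp beyond its 3′ end, was 1681 bp wide and scored 351.22. Rad21l, the other meiotic kleisin, had 0, with the nearest peak 12.4 kb upstream of its start.

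Of the 3 genes of HORMA-domain axis biology, Trip13 alone had a peak in the body or flanks, where 67.9% of all coding genes had one. Trip13, the ATPase that strips HORMA-domain proteins from synapsed axes, had an intronic peak on chromosome 13 at 73925780 to 73927144, which was 1365 bp wide and scored 233.59. Hormad1 and Hormad2, which encode the axis proteins themselves, had 0, and the nearest peaks lay 114.6 and 109.9 kb from their starts. Hormad2 has a body of 95.3 kb, and of 992 coding genes of 80 to 110 kb 13.2% had 0 peaks.

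The genes of double-strand break formation had 11 peaks, 8 of them in Mei4. Mei4, which encodes a partner of the break machinery, is the longest of the 35 genes, and its 8 intronic peaks gave 2.21 per 100 kb. Coding genes of 300 to 400 kb had a median of 7 peaks. Its scores ran from 59.37 to 259.78, the highest at chromosome 9, 82038810 to 82039813. The distances of the Mei4 peaks from the start ran from 35.02 to 301.3 kb. Spo11, the enzyme that breaks the DNA, had 1 peak with a score of 88.32, 1621 bp beyond its 3′ end (2.79 per 100 kb). Mei1 had its start-site peak on chromosome 15 at 82069909 to 82070460 and an intronic peak with a score of 63.10 at 82101146 to 82101658 (2.604 per 100 kb). Prdm9, the histone methyltransferase that marks the places of breaks in mouse, and Rec114, a partner of Mei4, had 0, although Rec114 spans 91.1 kb.

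The genes of strand exchange and crossover had 10 peaks in 6 of 8 members, beside the 67.9% of all coding genes with a peak in the body or flanks. Msh4, a MutS homologue that stabilises recombination intermediates, led with 4.35 per 100 kb. Its start-site peak lay on chromosome 3 at 153905400 to 153905953, and its intronic peaks scored 89.27 and 54.21. Rnf212, which encodes a crossover factor of the RING-finger type, had intronic peaks scoring 111.08 and 92.95 (3.04 per 100 kb), the first of which also lies inside the antisense gene 1700047L14Rik. Msh5, the partner of Msh4, had 1 flank peak inside Vwa7 (score 58.43; 2.62 per 100 kb). Hfm1, a helicase gene, had an intronic peak of 1577 bp with a score of 149.90 and a flank peak of 64.28. Dmc1, the meiotic strand-exchange recombinase, had 1 intronic peak (61.63), and Mlh3, a MutL homologue that acts in crossover resolution, had 1 flank peak (51.44), the lowest score of all 59. Meiob and Spata22, whose products bind single-stranded DNA together, had 0.

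The 4 genes of telomere attachment each had a peak in the body or flanks, where 67.9% of all coding genes had one, at densities of 1.67 to 3.61 per 100 kb. Terb1, which links telomeres to the nuclear envelope complex, had its start-site peak on chromosome 8 at 104509133 to 104509731 and intronic peaks with scores of 54.41 and 53.69 within 7.31 kb of the start. Its partner Terb2 had an intronic peak (79.63). Majin, which anchors the complex in the inner nuclear membrane, had as its only peak a flank peak inside Gpha2 (91.39), within 1 kb of the start of Gpha2. Sun1, the membrane protein that joins telomeres to the cytoskeleton, had a peak over coding exon 6 of 23 (score 57.09). Its flank peak lay inside Get4 (111.59), within 1 kb of the start of Get4.

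The genes of meiotic entry and progression had 3 peaks, with scores up to 72.33. Hspa2, the testis heat-shock protein gene, had 1 peak at chromosome 12, 76405294 to 76405902, all 609 bp of which lay in coding sequence, 1422 bp from the start (4.39 per 100 kb). Meioc and Ythdc2, partners in the passage from mitosis to meiosis, had 1 flank peak each, 9541 and 6860 bp upstream, with scores of 63.79 and 54.04. Stra8, the retinoic acid target that starts the meiotic programme, had 0, and the nearest peak lay 27.6 kb upstream of its start.

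Read by position, introns held the most peaks of meiotic prophase genes and exons the fewest, and the intronic share rested on 2 genes. Each peak was counted at the start, then in any annotated exon, then in an intron, then in a flank. Introns held 30 of the 59 peaks (50.8%, against 45.5% over all coding genes), flanks 19 (32.2%, against 29.95%), starts 7 (11.9%, against 12.03%) and exons 3 (5.08%, against 12.5%). Sycp1 and Mei4 had 18 of the 30 intronic peaks. Without them introns held 12 of 37 peaks (32.4%, or 11.3 per Mb of intron), flanks 16 (43.2%), starts 6 and exons 3. Per length of each class, exons had 26.6 peaks per Mb in meiotic genes and 61.7 in all coding genes. Introns had 19.9 and 20.6 peaks per Mb, flanks 28.6 and 31.3, and starts 99.95 and 119.4, with the meiotic genes given first each time. Of the 19 flank peaks, 13 lay beyond the 3′ end and 6 upstream, and 8 lay inside another gene.

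The few exon peaks stand beside the base composition of the transcripts, a comparison added after the values were seen. The GC content of the longest coding transcript had a median of 44.1% in the meiotic genes (34.3% to 56.7%), against 49.1% in all coding genes. In the quintile of coding genes with the lowest GC content (42.7% or less) lay 16 of the 35 meiotic genes. An exon peak was found in 0 of those 16, against 2.10% of coding genes there, and in 3 of all 35 (8.57%), against 17.4% of coding genes. The 3 genes, Hspa2 (53.6% GC), Sun1 (51.4%) and Rec8 (56.7%), were in the 2 highest quintiles, where 3 of 7 meiotic genes stand beside 24.8% and 43.7% of coding genes. The exon peaks of Sun1 and Rec8 also lay within 1 kb of another annotated transcript start of the same gene.

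The peaks of meiotic prophase genes with the highest scores lay in introns and flanks. Intronic peaks had a median score of 90.4 (84.5 without Sycp1 and Mei4), against 71.7 for the intronic peaks of all coding genes, and flank peaks 63.79, against 68.05. A score of 100 or more was reached by 14 of the 59 peaks (23.7%), against 29.3% of all 76434 peaks on the same chromosomes, and 11 of the 14 were intronic. Those 14 lay in 8 genes, and without Sycp1 and Mei4 there were 6, of which 4 were intronic. The median score over all 59 peaks was 72.45, against 74.0, and the median width was 608 bp, against 700 bp.

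**Figure D5:**
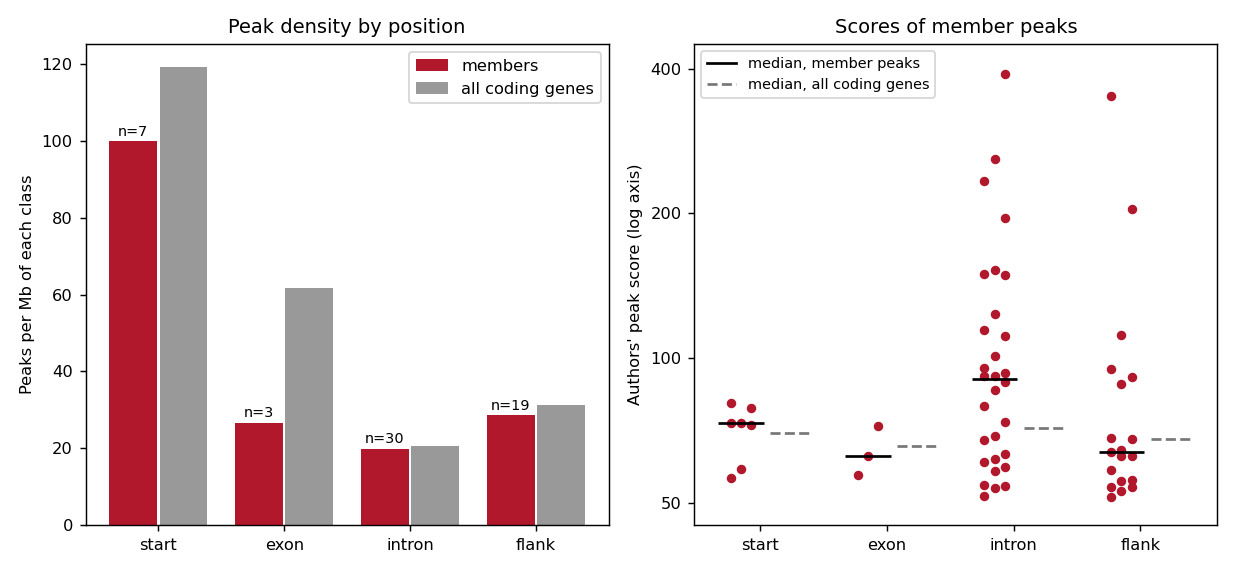
Left, H1t peaks per Mb of start windows, exons, introns and flanks in meiotic prophase genes (red, peak numbers above the bars) and all coding genes (grey); right, authors' score of each peak of the meiotic prophase genes by position on a log axis, with their median (solid) and that of all coding genes (dashed). Exons show 26.6 against 61.7 peaks per Mb, and scores over 100 appear in introns and flanks.

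A list of 65 further meiotic genes was described in the same manner. A start-site peak was found in 16 (24.6%), against 23.0% of all coding genes, and a peak in the body or flanks in 48 (73.8%), against 67.9%. The highest start-site scores were at Sun2, a paralogue of Sun1 (140.42), Ccna1, the meiotic cyclin A gene (121.08), 4930447C04Rik, the central element gene also called Six6os1 (116.13), and Rpa1, a subunit of the single-strand binding protein (103.21). Among those that followed were Topbp1 (95.51), the cohesin regulator Pds5b (86.40), Rpa2 (83.97), the checkpoint kinase gene Atr (66.07) and Gm4969, also called Meiosin (65.47). In the 2 highest quintiles of start-region GC content, 2 of 11 and 8 of 12 of these further genes had a start-site peak, where the 35 genes had 0 of 6 and 0 of 6. The start-site peaks of Sun2, Ccna1, 4930447C04Rik, Rpa1, Topbp1 and Atr also lay within 1 kb of the start of another gene. The peak of 4930447C04Rik lay inside that gene, Six6.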

How the data were processed

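Chromatin was cut enzymatically before immunoprecipitation, per the labels' protocols. The submitters' processing notes name Bowtie 1.1.2 and the build mm10. Which peak caller and threshold were used, and whether the input entered, is not given in the sources used here, although the peak names have the form that MACS writes. The deposited list gives 1 score per peak, the authors' own value, used here to describe and filter peaks. Read depth is unknown, so no counting interval is given. The 112 peaks outside chromosomes 1 to 19, X and Y were left out. A peak was placed by its midpoint against GENCODE M21, with coordinates counted from 1, and the start was the 5′ end of the gene record. Peaks per 100 kb cover the body and 10 kb on each side. Start windows came from RefSeq (GRCm38.p6), and quintiles of GC content were taken over 14598 coding genes. The genes and lists were chosen with earlier results of these data known. All genes with a start-site peak, the densest of each role and the genes with 0 peaks were named by rule, and so were further genes with the highest start-site scores, of which 1 is not reported here. Alternatives covered score, overlap, windows, starts and flanks. The counting was tested on simulated data. Sequences of the peaks as a set were not analysed here, although the bases printed for Sycp1 and Syce1 lie inside their peaks. Counting was done in Python 3.11.15 with pandas 2.3.3 and numpy 2.4.6, and figures were drawn with matplotlib 3.10.9.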

Additional observations from a re-analysis of the deposited data

How the results depend on the processing

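No paired analysis was possible because 1 library was analysed. Of 39 alternative values, 20 stayed near the value given above, and those that moved did so mainly with the score threshold, where fewer peaks were counted. With peaks above the median score, start-site peaks were found in 2 meiotic genes (Msh4 and Sycp1; 5.71%, against 10.4% of coding genes) and 7 of the further genes, a peak in body or flanks in 13, the median density was 0 as over all coding genes, and the peaks by position were 2 at starts, 0 in exons, 18 in introns and 6 in flanks. With scores of 100 or more these were 0 genes (against 5.21%), 4 further genes, 8 genes, a median of 0, and 0, 0, 11 and 3 peaks. With the gene body alone the median density was 0, as over all coding genes. With flanks of 5 kb the order of the medians turned, with 2.01 for the meiotic genes and 1.79 over all coding genes; the cause was not tested. With RefSeq windows at any distance, an alternative chosen after seeing the data, 2 of 17 genes in the GC-rich class had a start-site peak. Without Sycp1 and Mei4, also chosen after seeing the data, the intronic peaks were 12. With any annotated transcript start the genes with a start-site peak were 9, with Rec8 and Sun1 added, and with a window of 2 kb 8, with Hspa2 added. The 7 start-site scores lay between 56.31 and 80.52 in a list that begins at 50, and without read depth and input they cannot be weighed against background.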

Other observations

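CpG counts of the 300-bp start windows gave an order that was similar only in part. In the quintile of coding genes with the most CpG dinucleotides (29 or more), 1 of 5 meiotic prophase genes had a start-site peak (Smc1b, with 29), against 45.9% of coding genes. In the next quintile (21 to 28) it was 1 of 8 (Sycp1, with 21), against 33.99%. By GC content the 2 highest quintiles held 0 of 6 each. In the middle CpG quintile (12 to 20) it was 2 of 9, against 27.7%, where the middle GC quintile held 4 of 11, against 22.6%. The lower CpG quintiles held 1 of 3 (against 16.4%) and 0 of 1 (against 5.27%). Of the 65 further meiotic genes, 8 of 14 and 2 of 13 had a start-site peak in the 2 highest CpG quintiles, and 2 of 12 in the middle one.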
